A study of Drosophila melanogaster with 2 samples.

Results

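Of the 2042 peaks of the CG17612-eGFP ChIP-seq conservative list on the 7 assembled arms, 257 (12.6%, 95% Wilson interval 11.2 to 14.1) were intergenic and away from start sites. A peak was taken as a member where its summit lay in no annotated transcript and more than 500 bp from the start site of every gene, with transposable elements left out of the annotation. The other 1785 peaks comprised 996 promoter peaks, whose summits lay within 500 bp of a start site, 693 peaks in introns or non-coding exons, and peaks in coding and untranslated exons. The data came from whole embryos of Drosophila melanogaster, 0 to 24 hours old, in 2 biological replicates. The flies carried a transgene for CG17612 fused to enhanced green fluorescent protein, and chromatin was precipitated with an antibody against GFP, although the antibody label names CG17612. Both replicates belong to this 1 group, so that intergenic peaks were compared with the other peaks and with their own flanks, and no condition with another. Embryos of all stages in that window and all their cell types were mixed, so a peak cannot be assigned to a cell type or a time.

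In a compact genome such as that of the fly, the sequence between genes holds enhancers, which raise transcription of a gene at a distance, silencers, among them the response elements that recruit Polycomb group proteins, and insulators, which keep neighbouring regulatory domains apart. Su(Hw), a zinc finger protein known from the insulator of the gypsy retrotransposon, is a well studied fly insulator protein, and much of its binding lies away from promoters. CG17612 is an uncharacterized protein in the annotation used here, and it was assigned no function from these data.

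TGCATAC, the core of the sequence that Su(Hw) binds, was more frequent at intergenic summits than in their flanks under every alternative that was run. The sites of 9 members are shown first because most comparisons of sequence below turn on this motif. They are on dm6, 5′ to 3′ on the strand that reads TGCATAC, with the core in capitals, and the gap is named by a gene that borders it.
Or24a gap, 2L:4179538-4179568, plus strand: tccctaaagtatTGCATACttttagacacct
NijA gap, 3L:10739842-10739872, plus strand: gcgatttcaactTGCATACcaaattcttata
Sgsf gap, 3R:12345039-12345069, plus strand: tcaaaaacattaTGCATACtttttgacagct
CG7406 gap, X:19074774-19074804, minus strand: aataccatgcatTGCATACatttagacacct
CG9269 gap, 3R:13615196-13615226, minus strand: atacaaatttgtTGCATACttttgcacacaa
wb gap, 2L:14251958-14251988, plus strand: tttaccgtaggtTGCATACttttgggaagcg
ppk24 gap, 3R:31268918-31268948, plus strand: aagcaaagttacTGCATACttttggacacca
Diedel3 gap, X:19033899-19033929, minus strand: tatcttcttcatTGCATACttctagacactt
IFT52 gap, 2L:6552550-6552580, minus strand: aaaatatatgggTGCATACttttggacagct

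Most members did not carry this core. The 101 bp at the summit of 3 strong members without it are shown on the plus strand of dm6, so that their composition can be seen beside the values below. Capitals mark letters that match any of the 13 motifs searched, which in the lncRNA:CR45643 window are GAGAG, read here on the opposite strand, and GCCAT, also on the opposite strand. The foxo window matches none, and the lncRNA:CR45750 window, from the GC-rich end of the members, matches CAGGTA on the opposite strand.
lncRNA:CR45643 gap, 3R:16222438-16222538: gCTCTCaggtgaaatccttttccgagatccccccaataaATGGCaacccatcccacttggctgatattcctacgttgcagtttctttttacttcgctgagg
foxo gap, 3R:14053548-14053648: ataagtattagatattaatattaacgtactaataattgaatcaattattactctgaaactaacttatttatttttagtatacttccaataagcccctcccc
lncRNA:CR45750 gap, 3R:16798841-16798941: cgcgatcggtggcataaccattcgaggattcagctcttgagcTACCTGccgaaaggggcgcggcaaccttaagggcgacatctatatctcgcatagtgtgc

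TGCATAC, on either strand, lay within 50 bp of the summit in 18 of 257 members (7.004%, 95% Wilson interval 4.48 to 10.8). The window of the same 101 bp centred 300 bp to the right held it in 2 members (0.778%). All 18 members with a core at the summit lacked it in that flank, and the reverse held for 2 (exact McNemar test, p = 0.000403, adjusted p = 0.00523 over the 13 motifs). Among 101 bp tiles of all the intergenic sequence that the rule would accept, 1.41% held the core. Over the alternatives, the adjusted p of this exact test lay between 0.000273 and 0.0296.

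The share of members with the core was close to that of intron peaks and above that of promoter peaks. Its difference from the other peaks as a whole did not pass the adjusted test. The share with the core was 3.98% (71 of 1785) in the other peaks (Fisher's exact test, p = 0.033, adjusted p = 0.40). It was 6.49% (45 of 693) in intron and non-coding exon peaks and 2.21% (22 of 996) in promoter peaks, which were not tested apart. In the thresholded lists of the replicates taken alone, 13.1% of the 153 intergenic peaks of replicate 1 and 7.19% of the 167 of replicate 2 held the core. Without replicate 2, Su(Hw) was the 1 motif of 13 that differed between intergenic and other peaks after adjustment, and without replicate 1 none did.

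The core was more frequent in the summit window than in any other window examined. Distances of matches were measured inside the summit window only, so none could exceed 50 bp. The 18 members held 24 matches, with more than 1 in 5 of the members, and the median distance from the summit to the centre of a match was 13.5 bp (95% interval of the median 7 to 28). Of the 24 matches, 14 lay within 20 bp of the summit, a count that the width of the window also bounds. Windows centred 100 bp away on the left and right held the core in 3.89% and 5.45% of members, and those centred 300 to 400 bp away in 0.389% to 0.778%. Windows centred 500 to 1000 bp away held it in 0.389% to 2.33% of members, so the flank used in the test was among the lower of the windows. Over the whole width of the peak, 36 of 257 members (14.0%) held it.

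**Figure D1:**
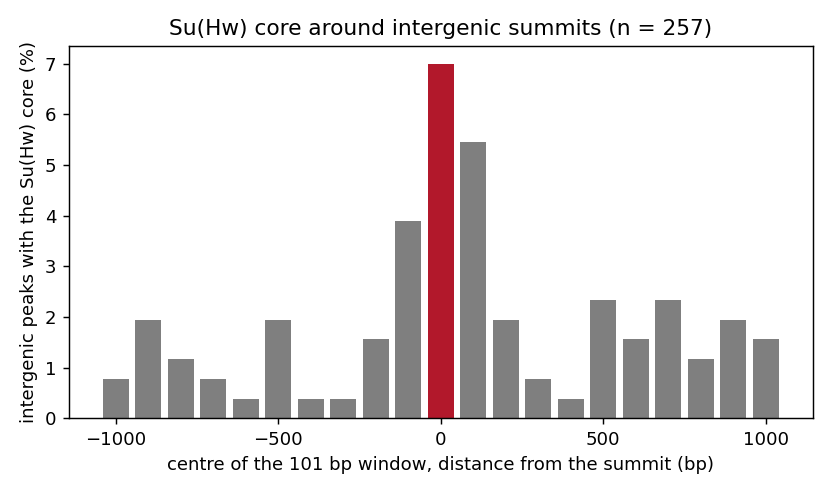
Share of the 257 intergenic peaks (%) whose 101 bp window holds the Su(Hw) core, by the distance of the window's centre from the summit in bp, with the summit window in red and the others in grey. The share was 7.004% at the summit and at most 5.45% in any other window.

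The letters after the core were also alike among the members. Counting from 1 at the first base of TGCATAC, T stood at positions 8, 9, 10 and 11 in 75.0%, 87.5%, 79.2% and 83.3% of the 24 matches. In all 5899 matches of the core in intergenic sequence open to the rule, those shares were 31.5%, 40.5%, 32.5% and 35.7%. Position 15 was C in 62.5% of the members' matches and in 25.0% of all matches, and position 16 was A in 66.7% and 33.2%. The printed sites of Or24a, Sgsf, CG9269, wb, ppk24 and IFT52 show T at each of positions 8 to 11, directly after the capitals. Those of NijA, CG7406 and Diedel3 do not. These letters were examined after the core had been called, and no test was made of them. The matches are not independent, since 5 members held more than 1, and those beside lncRNA:CR45709 are nearly the same sequence.

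Most copies of the core in the genome's intergenic sequence were not under a member. Of the 5899 matches, 47 (0.797%, Wilson interval 0.600 to 1.06) lay under a member and 1714 (29.1%) under any of the ranked, unthresholded peaks. Of the 308 matches followed directly by TTTT, 19 (6.17%, 3.98 to 9.43) lay under a member and 117 (38.0%) under a ranked peak. The share of eligible sequence that members or ranked peaks cover was not computed. These shares of matches therefore cannot be read as high or low against any intergenic base. The longer form was at 11 member summits (4.28%) and at 23 of the 1785 other summits (1.29%), and in none of the 257 flanks, which allows a share of up to 1.17%.

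Members with the core differed from the rest in how the replicates scored them. Scores here are the authors' signal values, with no stated scale, used only to order and describe the peaks of a list. For a member, the score in a replicate is that of the highest overlapping peak in the replicate's own ranked list. At the Or24a gap (Or24a encodes an odorant receptor) the pooled score was 342, with 241 in replicate 1 and 88.2 in replicate 2. At the Sgsf gap the pooled score was 211, with 152 in replicate 1 and 61.7 in replicate 2. Both peaks were in the thresholded lists of both replicates and had higher scores in replicate 1. Since the lists have no stated common scale, these ratios are read beside those of the other members.

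The gap between CG9757 and CG9269 had a pooled score of 168, with 135 in replicate 1 and 36.1 in replicate 2. The gap bordered by wb, which encodes a laminin alpha chain of the basement membrane, had 156, with 120 in replicate 1 and 30.7 in replicate 2. These peaks were in the thresholded list of replicate 1 and not in that of replicate 2. The gap between ppk24, of the pickpocket family of sodium channels, and pHCl-2, a chloride channel gene, held a pair of core-bearing peaks, with 155 and 127 as pooled scores, 108 and 77.3 in replicate 1, and 56.5 and 45.4 in replicate 2. The exception was the NijA gap, at 101 in replicate 1 and 120 in replicate 2.

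Over the 18 core-bearing members, replicate 1 scored higher than replicate 2 in 17, and the ratio of the replicate scores had a median of 1.80 (95% interval 1.58 to 2.21). In the members without the core, replicate 1 was higher in 147 of the 237 with a score in both (62.0%), and the median ratio was 1.09 (1.06 to 1.19). Intron and non-coding exon peaks had 1.72 (1.26 to 2.09, n = 45) with the core and 1.05 (1.02 to 1.09, n = 636) without it. Promoter peaks had 1.16 (0.889 to 1.40, n = 21) with the core and 1.11 (1.09 to 1.14, n = 970) without it. The pattern was noticed in these peaks and has no other samples to be tested on.

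**Figure D2:**
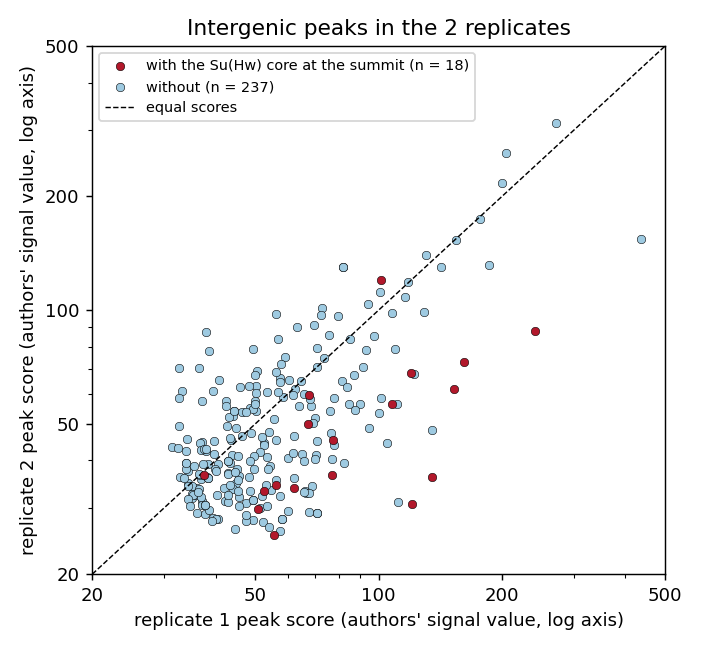
Score of each intergenic peak in replicate 1 (horizontal, log axis) and replicate 2 (vertical, log axis), in the authors' signal units, with the 18 core-bearing peaks in red, the 237 others with a score in both replicates in blue, and the line of equal scores dashed. Of the red points, 17 of 18 lie below the line, with a median ratio of 1.80.

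Core-bearing members had higher pooled scores and scores in replicate 1 than the rest, and not in replicate 2, by differences that were not tested. Their pooled scores had a median of 130 (95.2 to 188), against 93.3 (85.0 to 99.3) for the 239 without the core. Intron and non-coding exon peaks were alike in this, at 134 (102 to 165) with the core and 93.1 (89.5 to 96.7) without it. Promoter peaks were at 99.55 (75.1 to 178.5) with the core and 108 (103 to 114) without it. The core was in 14 of the 129 members of higher score (10.9%) and in 4 of the 128 of lower score (3.12%). In replicate 2 the medians were 41.0 (33.8 to 61.7) with the core and 43.0 (40.3 to 46.3) without it, and in replicate 1 they were 77.0 (56.2 to 120) with it and 49.6 (46.4 to 53.0) without it. The median distance to a start site was 5553 bp (2047 to 13101) with the core and 2218 bp (1893 to 3101) without it, with overlapping intervals and no test. Some core-bearing summits lay close to a gene, as the one 14 bp from wts in the 422 bp gap and the one 135 bp from Zasp52. By arm, 5 of 28 members on X, 6 of 51 on 3R, 4 of 62 on 2L, 2 of 34 on 2R, 1 of 81 on 3L and 0 of 1 on 4 carried it.

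GAGAG, the letters bound by GAGA factor, was less frequent at the summit than in the flank. It was at 23 of 257 member summits (8.95%) and in 48 flanks (18.7%), with 11.2% of the tiles of eligible intergenic sequence holding it (exact McNemar test, p = 0.00355, adjusted p = 0.0230). The share at summits was near that of the tiles, and it was the right flank that stood above them. By the same exact test the call was lost without replicate 2 (adjusted p = 1), against the left flank (0.0976), with windows of 100 bp each side (0.271), with a minimum distance of 1000 bp (0.639) and with protein-coding transcripts alone (0.345).

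None of the other 11 motifs differed between summit and right flank after adjustment. Against the left flank the TATA box letters TATAAA were called, at 18.3% of summits and 8.95 percentage points above that flank (exact McNemar test, adjusted p = 0.0385). Against the right flank the difference was 2.33 points (exact McNemar test, adjusted p = 1), and without replicate 2 it was -1.31 points. The DNA replication-related element TATCGATA was at 1 member summit (0.389%) and at 22 of the 996 promoter summits (2.21%). The Zelda motif CAGGTA was at 5 summits (1.95%) and in 8 flanks (3.11%). GCCAT, the core bound by the Polycomb recruiter Pho, was at 49 summits (19.1%) and in 45 flanks (17.5%), with 19.4% of tiles. The CTCF core AGGNGGC was at 13 summits and in 13 flanks (5.06% each). The E-box CACGTG was at none of the summits, which allows a share of up to 1.17%, and at 17 of the 1785 other summits (0.952%). Shares of all 13 motifs were also set against the other peaks by Fisher's exact test, which called 0 of 13 after adjustment and 1 of 13 at an unadjusted p under 0.05.

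Words of 6 bases were ranked by their excess at summits over flanks on 2L and 3L and tested on the other members. Of the 10 words, the exact McNemar test called 0 after adjustment and 2 at an unadjusted p under 0.05. AAAGTA was at 26 of 113 summits and in 10 flanks (exact p = 0.0070, adjusted p = 0.0627), and AAGTAT was at 25 summits and in 11 flanks (exact p = 0.0125, adjusted p = 0.0627). Read on the opposite strand, these are TACTTT and ATACTT, and they overlap the end of the Su(Hw) core and the run of T after it. Over all 257 members, however, AAAGTA was at 55 summits and AAGTAT at 50, and the core at 18. Most summits with either word thus did not carry the core. In the list of replicate 1 alone, 4 of 10 words were called, and in that of replicate 2 alone 0.

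Intergenic summits were poorer in G and C than their surroundings. The 101 bp at the summit had a GC content of 37.6% ± 10.3 and the flank 41.7% ± 10.6 (SD over 257 peaks), a mean difference of -4.09 percentage points. GC content was lower at the summit in 159 members, higher in 90 and equal in 8 (exact sign test, p = 1.46e-05). Eligible intergenic sequence as a whole had 40.7%. In the thresholded list of replicate 1 alone the difference was -1.92 points and did not pass the exact sign test (p = 0.123), and in that of replicate 2 alone it was -7.93 points (p = 2.01e-06). Peaks are not independent replicates, and these tests and intervals cover the spread between peaks only.

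In windows of 41 bp the mean GC content at the summit was 37.0% in members, against 34.5% in intron and non-coding exon peaks and 34.8% in promoter peaks, a difference that was not tested. Runs of 6 or more A or T bases were at 60 member summits (23.3%), in 44 right flanks (17.1%) and in 63 left flanks (24.5%). Bases marked as repeats or low complexity in the genome sequence made up 19.7% of member summit windows and 28.4% of eligible sequence. In the summit windows of the other peaks they made up 21.0%, so the members were near peaks in general.

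**Figure D3:**
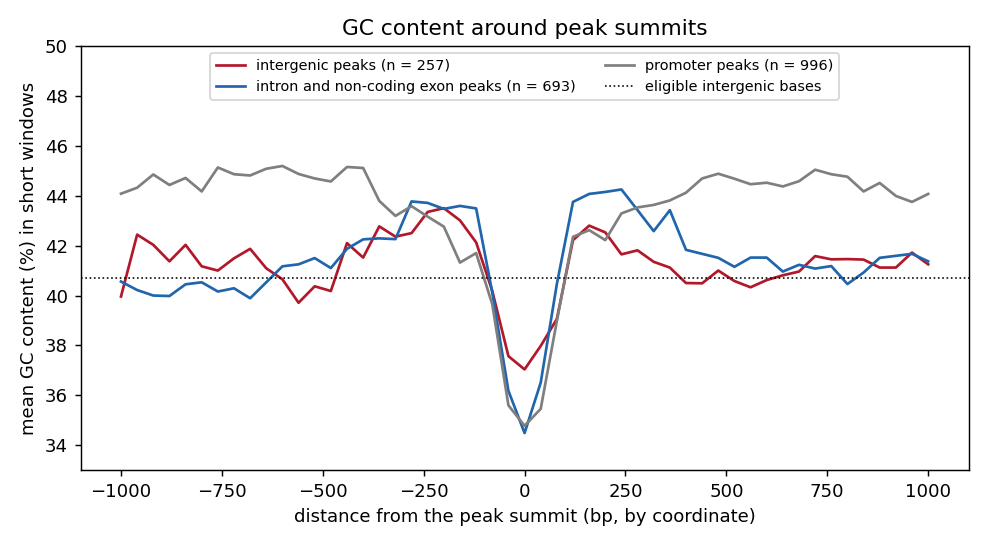
Mean GC content (%) in windows of 41 bp by distance from the summit in bp, for intergenic peaks (red), intron and non-coding exon peaks (blue) and promoter peaks (grey), with the mean of eligible intergenic bases dotted. Each class has its minimum at the summit, at 37.0%, 34.5% and 34.8%.

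GC content varied widely among the members, and the list of replicate 2 held a smaller share of those rich in GC. In replicate 1 the shares went the same way, with overlapping intervals. The bands of GC content were not planned, and no test was made. GC content ran between 17.8% and 67.3%. The 60 members with 45% or more had a median pooled score of 79.2 (72.2 to 84.0), against 102 (94.6 to 116) in the 124 members under 35% and 95.2 (82.5 to 111) in the 73 members between. Of the GC-rich members, 26 (43.3%, 31.6 to 55.9) were in the thresholded list of replicate 1 and 11 (18.3%, 10.6 to 29.9) in that of replicate 2. Of the members under 35%, 72 (58.1%, 49.3 to 66.4) were in that of replicate 1 and 71 (57.3%, 48.5 to 65.6) in that of replicate 2.

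The other peaks showed a gradient in the same direction in both replicates. Of those with 45% GC or more, 36.4% were in the list of replicate 1 and 30.3% in that of replicate 2, against 64.9% and 69.6% of those under 35%. Across the 257 members, Spearman's rho between score and GC content was -0.25, a description over peaks that share libraries. An exception among the strongest members was the gap between Glut3, a glucose transporter gene, and lncRNA:CR45750, at 55.4% GC with a pooled score of 213, 108 in replicate 1 and 98.4 in replicate 2. Its summit window is printed above.

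**Figure D4:**
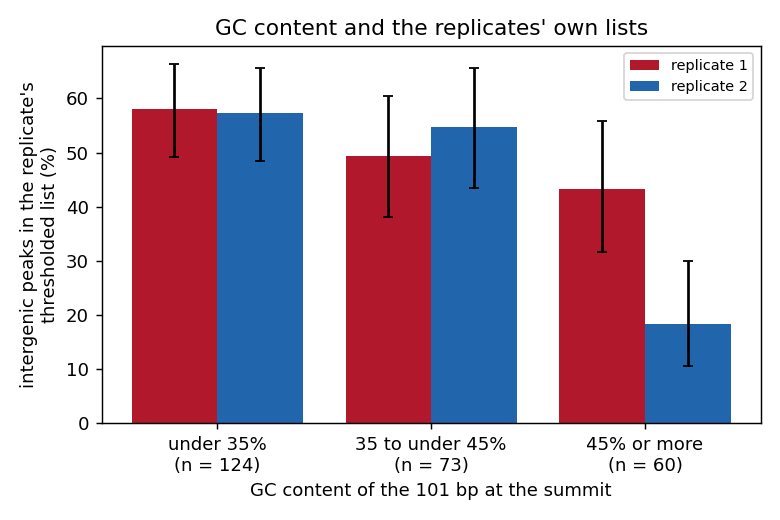
Share of intergenic peaks (%) that each replicate's own thresholded list holds (replicate 1 red, replicate 2 blue), by GC content of the 101 bp at the summit, with 95% Wilson intervals. The bars are of similar height under 35% GC, at 58.1% and 57.3%, and apart at 45% or more, at 43.3% and 18.3%.

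In score, intergenic peaks were close to intron peaks and stood below promoter peaks. The median pooled score was 94.6 (95% interval 87.6 to 100.2) in members, 94.7 (91.2 to 98.1) in intron and non-coding exon peaks and 108 (103 to 114) in promoter peaks. The highest member reached 595, and the highest of the other peaks 1264. Of the members, 117 of 257 (45.5%) exceeded the median of the other peaks, as did 892 of the 1785 other peaks (49.97%; Fisher's exact test, p = 0.205). In the list of replicate 2 alone 36.5% of members exceeded that list's median of the other peaks (Fisher's exact p = 0.00121), and in the list of replicate 1 alone 41.8% did (Fisher's exact p = 0.0697).

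Fewer members than other peaks were found again in the list of each replicate, by a margin that did not pass adjustment. A thresholded peak of both replicates overlapped 90 of 257 members (35.02%, 29.4 to 41.0), against 751 of 1785 other peaks (42.1%, 39.8 to 44.4) and 41.2% of all peaks (Fisher's exact test, p = 0.0355, adjusted p = 0.071 over the 2 comparisons with other peaks). Whether or not the other replicate's list held them, the list of replicate 1 covered 134 members (52.1%), against 54.9% of all peaks. Counted in the same way, the list of replicate 2 covered 122 (47.5%), against 57.0% of all peaks. For 91 members (35.4%, 29.8 to 41.4) neither replicate's own list held the peak, against 507 of the 1785 other peaks (28.4%, 26.4 to 30.5). That share was 31.6% in intron and non-coding exon peaks and 22.6% in promoter peaks, and the differences were not tested. Intron and non-coding exon peaks were at 36.2% for both lists, and promoter peaks at 48.6%.

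The replicate scores of members were also less tightly related, with a Spearman's rho of 0.478 over 255 members and 0.664 over 1765 other peaks, both descriptions over peaks of the same libraries. The ranked list held 34304 intergenic peaks by the same rule, of which 0.749% were thresholded, against 1.41% of all ranked peaks. Intergenic peaks were thus 23.8% of the ranked list and 12.6% of the thresholded one.

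Several members were shoulders of a stronger neighbour. There were 18 members that overlapped another member, so that the 257 peaks covered 248 separate stretches. In 9 members, all overlapping another peak, the pooled score lay under the score of the overlapping replicate peak, between 2.06 and 39.9, while no other member was below 44.7. At the gap between CG43774 and ed, an adhesion molecule gene, a peak of score 53.2 was followed 199 bp on by one of 5.57, with the same replicate peaks of 37.7 and 30.5 under both. Without these 9, the count was 248 and the median score 95.4.

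The strongest members lay beside genes of varied roles. The highest score, 595, was at 2R:25183143-25183385 between Ebp and CG9380, with 435 in replicate 1 and 154 in replicate 2. The next, 573, was at 2R:13035236-13035431 between Su(z)2 and CG13323, with 271 in replicate 1 and 313 in replicate 2. Su(z)2 encodes a relative of the Polycomb protein Psc, and its 3′ end lay 27423 bp to the left of the summit.

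Then came 470 at 3R:16222392-16222610, upstream of lncRNA:CR45643 by 907 bp, with 205 in replicate 1 and 260 in replicate 2. The peak at 3R:14053494-14053686, with its summit 3347 bp upstream of foxo, the forkhead factor that insulin signalling restrains, had 424, with 200 in replicate 1 and 217 in replicate 2. These peaks, whose summit windows are printed above, had higher scores in replicate 2, as did the Su(z)2 peak, whereas the top peak had the higher score in replicate 1.

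Between blw, which encodes the alpha subunit of ATP synthase, and CycB, the cyclin B gene, a gap of 1340 bp between 3′ ends held a peak of score 347, with 176 in replicate 1 and 174 in replicate 2. The peak 565 bp upstream of sp3, in the gap after the homeobox gene C15, had 315, with 186 in replicate 1 and 131 in replicate 2. The peak beside CG31668 had 309, with 155 in replicate 1 and 153 in replicate 2. All of the 20 strongest members were in the thresholded list of both replicates, and 4 of them carried the Su(Hw) core. Presence in both lists went with score in other peaks too. Among peaks at or above the median score, 70.9% of members and 76.8% of other peaks were in both.

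The genes that flank members were counted against lists of genes, with 406 of the 18277 annotated genes (2.22%) beside a member. A gene at a wide gap has more room for a peak, so the counts are descriptions. Polycomb and insulator genes were beside a member in 4 of 36 cases (11.1%), namely Su(z)2, Psc, ph-p and ph-d, all of which encode proteins of the Polycomb group. The peaks beside Psc scored 157 (69.5 in replicate 1, 91.6 in replicate 2) and 84.0 (32.5 and 58.4), and that between ph-d and ph-p scored 119 (68.0 and 58.0). With the peak of 573 beside Su(z)2, both of these neighbouring gene pairs had members.

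Segmentation genes were beside a member in 6 of 36 cases (16.7%). The peak between the forkhead genes slp1 and slp2 scored 186 (93.2 in replicate 1, 78.3 in replicate 2), and that 5264 bp from ptc, the Hedgehog receptor gene, scored 120 (62.4 and 61.6). The peak 3012 bp upstream of hry, the pair-rule gene hairy, scored 80.8 (47.5 and 30.8). The peak in the 422 bp gap between zfh1, a zinc finger and homeodomain factor, and wts, the Warts kinase of the Hippo pathway, scored 64.4 (37.4 and 36.5). Of these, the slp peak stood in the upper part of the members and the zfh1 peak was among the lowest.

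Signalling genes were beside a member in 6 of 54 cases (11.1%), with a pair of peaks near aop, an ETS-family repressor, at 115 (58.4 and 58.8) and 110 (55.5 and 51.4). Homeobox genes of the Hox and head-gap list were beside a member in 4 of 37 cases (10.8%). The peaks near ems, a head homeobox gene, scored 95.4 (42.7 and 49.4) and 72.6 (36.5 and 36.9), that between the Pax-type genes eyg and toe 82.8 (54.7 and 33.4), and that near oc 79.6 (36.9 and 35.8). None of these lay within 10 kb of a start site. No proneural gene of 30 was beside a member, a list too short for this to be read as low beside the 2.22% of all genes.

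Genes of differentiated cells were also among the neighbours. Axon guidance and adhesion genes were beside a member in 5 of 76 cases (6.58%), among them unc-5, a netrin receptor gene, at 131 (83.7 in replicate 1, 62.6 in replicate 2) and NetA, which encodes a netrin, at 66.3 (37.0 and 30.5). Ion channel and synapse genes were in 3 of 54 cases, muscle genes in 3 of 36 (Zasp52 of the Z-disc and the actins Act79B and Act87E), and ecdysone genes in 2 of 25. Among large families the shares were near or under the 2.22% of all genes, at 3 of 124 cuticle genes (2.42%), 2 of 92 ribosomal protein genes (2.17%, RpLP0 and RpS23), 4 of 290 tRNA genes (1.38%) and 2 of 237 chemosensory receptor genes (0.844%).

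Long non-coding and antisense RNA genes were beside a member in 101 of 2448 cases (4.13%), and 114 of 257 members had such a neighbour. For 74 members (28.8%) the nearest start site was that of a non-coding RNA gene other than tRNA, and for 176 (68.5%) that of a protein-coding gene. The same shares of eligible intergenic sequence were not computed, so these counts of members cannot be read as high or low. CG17612 itself, at 2L:4380722-4382735 on the minus strand, was not beside a member, the nearest of which lay 49559 bp from its start site. A peak outside the class lay 1065 bp from a start site of the gene.

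Members lay close to genes for intergenic sequence, a distance the rule itself bounds, so that no test was made. The median distance to the nearest start site was 2331 bp (95% interval 1947 to 3347), with 514 bp as the lowest and 392110 bp as the highest. Between 500 and 1000 bp lay 53 members (20.6%), where 7.40% of eligible bases lie, and beyond 20 kb lay 10 (3.89%), against 24.7% of eligible bases. Eligible bases were not filtered for repeats and included those of Y (6.44% of them), where 0 members lay. Score did not follow distance, with a Spearman's rho of 0.029 over the 257 members.

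**Figure D5:**
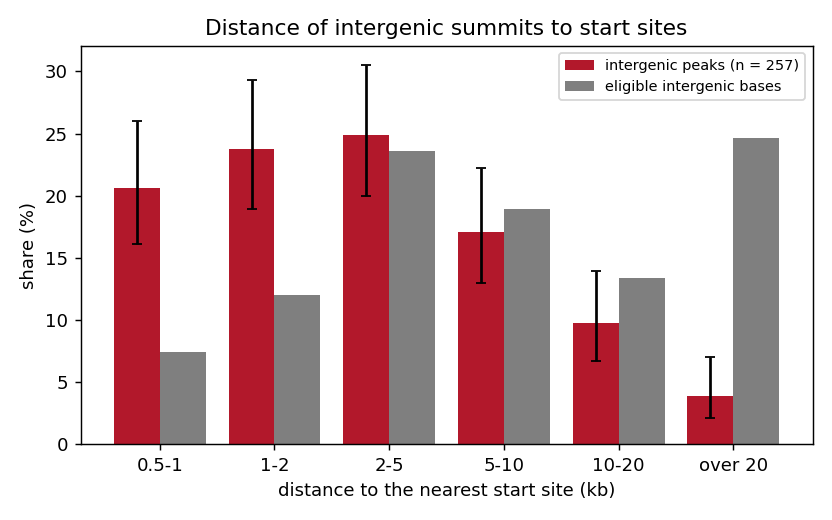
Share (%) of intergenic peaks (red, with 95% Wilson intervals) and of the intergenic bases that the rule would accept (grey), by distance to the nearest start site in kb. Peaks hold 20.6% and bases 7.40% in the nearest bin, and peaks 3.89% and bases 24.7% in the farthest.

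At the edge of the rule, the nearest members were 514 bp from lncRNA:CR45277 (score 85.0), 521 bp from CG42566 (101) and 529 bp from Cdk4 (73.5). The peaks that just missed it were 499 bp from CG17896 (409), 490 bp from CG3348 (111) and 487 bp from CG10479 (217). In all, 754 summits lay in no transcript, and 497 of them were within 500 bp of a start site.

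The 4 remotest members lay in wide gaps on 3L and 3R. The peak 392110 bp from Myo81F, a myosin gene on 3R, scored 102, with 69.9 in replicate 1 and 40.5 in replicate 2. The peaks 198211 bp and 120787 bp from CR14578, in the 399173 bp gap after Dbp80 on 3L, scored 112 and 82.9, with 66.0 and 57.6 in replicate 1 and 33.3 and 26.0 in replicate 2. The peak 59609 bp from CG41099 on 3R scored 66.5, with 43.4 in replicate 1 and 34.5 in replicate 2. All of these had higher scores in replicate 1, and their summits had between 47.5% and 61.4% GC. The summit window of the Myo81F peak was wholly marked as repeat or low complexity in the genome sequence, and the summit of the CG41099 peak lay in an annotated transposable element, as did that of 1 other member.

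The nearest gene started toward the summit, so that the summit was upstream of it, in 154 members (59.9%, 53.8 to 65.7), which was near the 57.9% of eligible bases. The median score was 100.5 (91.6 to 109) upstream and 85.0 (80.9 to 95.1) downstream. Of the members, 72 (28.0%, 22.9 to 33.8) lay in gaps between divergent genes, against 19.6% of eligible bases, 121 (47.1%) in tandem gaps, against 51.1%, and 63 (24.5%) in convergent gaps, against 25.9%. By arm, members made up 19.1% of the peaks of 3L, 15.5% of 2L, 11.2% of 3R, 9.26% of 2R and 7.16% of X. Per megabase of eligible sequence there were 8.93 on 3L, 9.23 on 2L, 6.65 on 3R, 4.57 on 2R, 5.27 on X, 4.08 on 4 and 0 on Y.

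Members were spread over 202 gaps, of which 165 held 1 member, 25 held 2, and 12 held 3 to 5. The gap of 20910 bp between lncRNA:CR44603 and lncRNA:CR45695 on 2L held 5, in order of position at 56.9, 232, 126, 274 and 211. In replicate 1 these were at 44.5, 118, 65.8, 130 and 101, and in replicate 2 at 37.2, 119, 60.1, 140 and 112. Of the 5, 3 were among the 20 strongest members, and none carried the Su(Hw) core.

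The gap of 75047 bp between NijA, which encodes a ninjurin adhesion protein, and CG43245 held 4, at 112, 215, 269 and 135, with 50.1, 101, 142 and 70.8 in replicate 1 and 53.9, 120, 130 and 45.1 in replicate 2. All 4 were in the thresholded lists of both replicates. The gap between CG43759 and Diedel3 on X held 3, at 133, 124 and 146, with 67.5, 67.1 and 84.5 in replicate 1 and 59.8, 49.9 and 56.4 in replicate 2. Its first 2 members carried the core, each with a pair of matches on opposite strands, of which 1 is printed above.

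The gap between vvl, which encodes a POU-domain factor, and lncRNA:CR45115 held 3, at 71.5, 79.5 and 93.5, with 34.2, 53.0 and 42.4 in replicate 1 and 34.9, 34.5 and 55.8 in replicate 2. The gap between lncRNA:CR45393 and Eip75B, an ecdysone-induced nuclear receptor gene, held 3 within 3252 bp, at 80.9, 8.22 and 72.6, with the lowest a shoulder of the first. Clusters thus ranged from several of the strongest members to several of the weakest. Another peak of any class lay within 1 kb of 49 members (19.1%) and within 10 kb of 127 (49.4%).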

How the data were processed

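Peak lists of ChIP-seq on 2 biological replicates of CG17612-eGFP embryos were analysed. Per the labels, chromatin was sonicated to 200 to 800 bp. The aligner and the caller of the peaks were not given in the sources used, and the control experiment that the labels name was not analysed here. Scores are signal values of the authors as deposited, whose scale is not stated. The lists hold no read counts, so the depth is unknown. Members, motifs and gene lists were chosen with earlier results of these data known.

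Summits were placed on dm6 with the Ensembl release 115 annotation and the Release 6 genome. Motifs were searched on both strands in 101 bp at the summit and in a window 300 bp to the right, and tested by exact McNemar and Fisher tests with Benjamini-Hochberg adjustment and a threshold of 0.05. Listed gene symbols missing from the annotation were looked up among RefSeq synonyms. Overlap meant at least 1 bp. Eligible bases are those the rule would accept as summits. Intervals are 95% Wilson intervals or exact order-statistic intervals of a median and cover counting error only. A share of 0 has the limit of 3 counts. Genes named are those flanking the 20 strongest and 5 farthest members, gaps with 3 or more members, up to 4 members per list, and core-bearing members, the last chosen after their values were seen. Computation used Python 3.11.15 and SciPy 1.17.1, and was tested on simulated data.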

Additional observations from a re-analysis of the deposited data

How the results depend on the processing

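Of 115 recomputed values, 81 kept their direction and side of the threshold, stayed within the main interval or, for counts, within a fixed fold range of the main count. By that range, 329 members with a minimum distance of 250 bp and 204 with 1000 bp, against 257, counted as kept. The 1 that reversed was the TATA box against flanks, at -1.31 points without replicate 2 (3.59 without replicate 1), and it was called against the left flank alone. The Su(Hw) core at summits against flanks passed under all alternatives. No paired analysis was possible because there is 1 group. The values from each replicate's own list (1 replicate left out) ranged as follows: number of members 153 to 167, median score 56.5 to 65.7, share above the other peaks' median 36.5% to 41.8%, distance 2475 to 2661 bp, upstream share 62.1% to 66.5%, GC difference -7.93 to -1.92 points, motifs called against flanks 1 to 2, motifs called against other peaks 0 to 1, words called 0 to 4. Among peaks at or above the median score, members numbered 117, with a median score of 130 and 69.2% upstream. With a minimum distance of 250 bp, the median distance was 1637 by construction, 68.4% were upstream and 2 words were called. With 1000 bp, it was 3712 bp, 52.0% were upstream, 42.2% exceeded the other peaks' median (Fisher's exact p = 0.0386), 33.3% were thresholded in both replicates (unadjusted exact p = 0.0165) and 1 motif was called against flanks. With protein-coding transcripts alone, the median distance was 4215 bp and 1 motif was called against flanks and 1 (the CTCF core) against other peaks. With the less strict list, 30.8% were thresholded in both replicates (unadjusted Fisher's exact p = 0.00609). The difference in that share was smaller with 250 bp (38.9% in members and 41.6% in other peaks, exact p = 0.392). It did not pass even unadjusted among peaks at or above the median score (exact p = 0.168), with protein-coding transcripts alone (exact p = 0.0941) or without the shoulder peaks (exact p = 0.0734). With windows of 100 bp each side, 1 motif was called against flanks and 1 against other peaks, Su(Hw) in both. The cause of these shifts was not tested where it is not stated. Without the 9 shoulder peaks, an alternative chosen after seeing the data, no call changed. Unknown depth limits what the lists can show.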
